A study of Rattus norvegicus with 2 samples.

Results

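Fast excitatory transmission in the brain runs mainly through AMPA-type glutamate receptors, and 7 of their genes are described here in nuclei of the rat orbitofrontal cortex. The set holds the 4 pore-forming subunits Gria1, Gria2, Gria3 and Gria4 and the auxiliary subunits Cacng3, Cnih3 and Shisa6. They were taken by symbol from the deposited gene tables, where each symbol has 1 row among 25399 genes. The tables pair them with the rat Ensembl identifiers ENSRNOG00000045816 (Gria1), ENSRNOG00000054204 (Gria2), ENSRNOG00000007682 (Gria3), ENSRNOG00000006957 (Gria4), ENSRNOG00000012362 (Cacng3), ENSRNOG00000022724 (Cnih3) and ENSRNOG00000029012 (Shisa6). The study compared single-nucleus libraries of male Sprague-Dawley rats aged 8 weeks, as a model of sensitization to methamphetamine (METH), a psychostimulant that releases dopamine. The METH group received 1 mg/kg METH intraperitoneally for 7 days, and the saline group received saline by the same route for 7 days. Tissue came from 4 animals in each group and gave 1 library per group. The labels do not say how tissue of the animals was combined, so animals cannot be told apart within a library.

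An AMPA receptor is a tetramer of GluA subunits, and each subunit gene encodes 1 type. Receptors that hold the edited product of Gria2 pass little calcium, whereas receptors without it are calcium-permeable and are known from several kinds of cortical interneuron. Auxiliary subunits bind the tetramer and set its trafficking and gating: Cacng3 encodes the TARP gamma-3, Cnih3 a cornichon protein and Shisa6 a transmembrane protein that limits desensitization. Addiction research has followed these genes in the striatum and the prefrontal cortex, where receptor makeup is altered after some psychostimulant treatments.

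The METH library held 5543 nucleus barcodes with 44969322 unique molecular identifiers (UMIs, 1 per captured RNA molecule), and the saline library held 6969 barcodes with 42221257 UMIs. The median nucleus had 6401 UMIs in the METH library and 4992 in the saline library, and 9 barcodes occurred in both. Filters and doublet removal kept 5159 METH and 6509 saline nuclei. Marker genes defined 2145 METH and 3500 saline excitatory neurons, and 1291 METH and 1221 saline inhibitory neurons. The receptor genes listed here were left out of the clustering. All 5 excitatory markers, among them the vesicular glutamate transporter Slc17a7, had UMIs in excitatory neurons of both libraries. Their summed level was 1035 CPM (a gene's UMIs as a share of all UMIs of the class, scaled to one fixed total) in METH and 1121 in saline excitatory neurons, and 52.5 CPM in METH and 83.2 in saline inhibitory neurons. All intervals below are 95% intervals that cover counting error only, since 1 library per group gives no spread between samples and allows no test.

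Gria4 was the pore subunit that most separated inhibitory from excitatory neurons. In the METH library it reached 1984 CPM in inhibitory and 775 CPM in excitatory neurons, and in the saline library 2083 CPM in inhibitory and 836 CPM in excitatory neurons. Both libraries thus held about the same distance between the classes, with a log2 ratio of inhibitory over excitatory of 1.36 (1.33 to 1.39) in METH and 1.32 (1.28 to 1.35) in saline nuclei. Gria1, the subunit most studied in activity-dependent receptor insertion, was also higher in inhibitory neurons, at 871 against 542 CPM in excitatory neurons of the METH library. In the saline library Gria1 stood at 862 CPM in inhibitory and 601 CPM in excitatory neurons. Gria2, which sets calcium permeability, was level across the classes. It had 1963 CPM in inhibitory and 1996 CPM in excitatory neurons of the METH library, and 1973 CPM in inhibitory and 2049 CPM in excitatory neurons of the saline library. Gria3 was also close between them: inhibitory neurons had 1253 CPM in METH and 1338 CPM in saline, beside 1376 CPM in METH and 1335 CPM in saline excitatory neurons. For Gria3 the sign of the small class difference was not the same in the libraries.

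**Figure D1:**
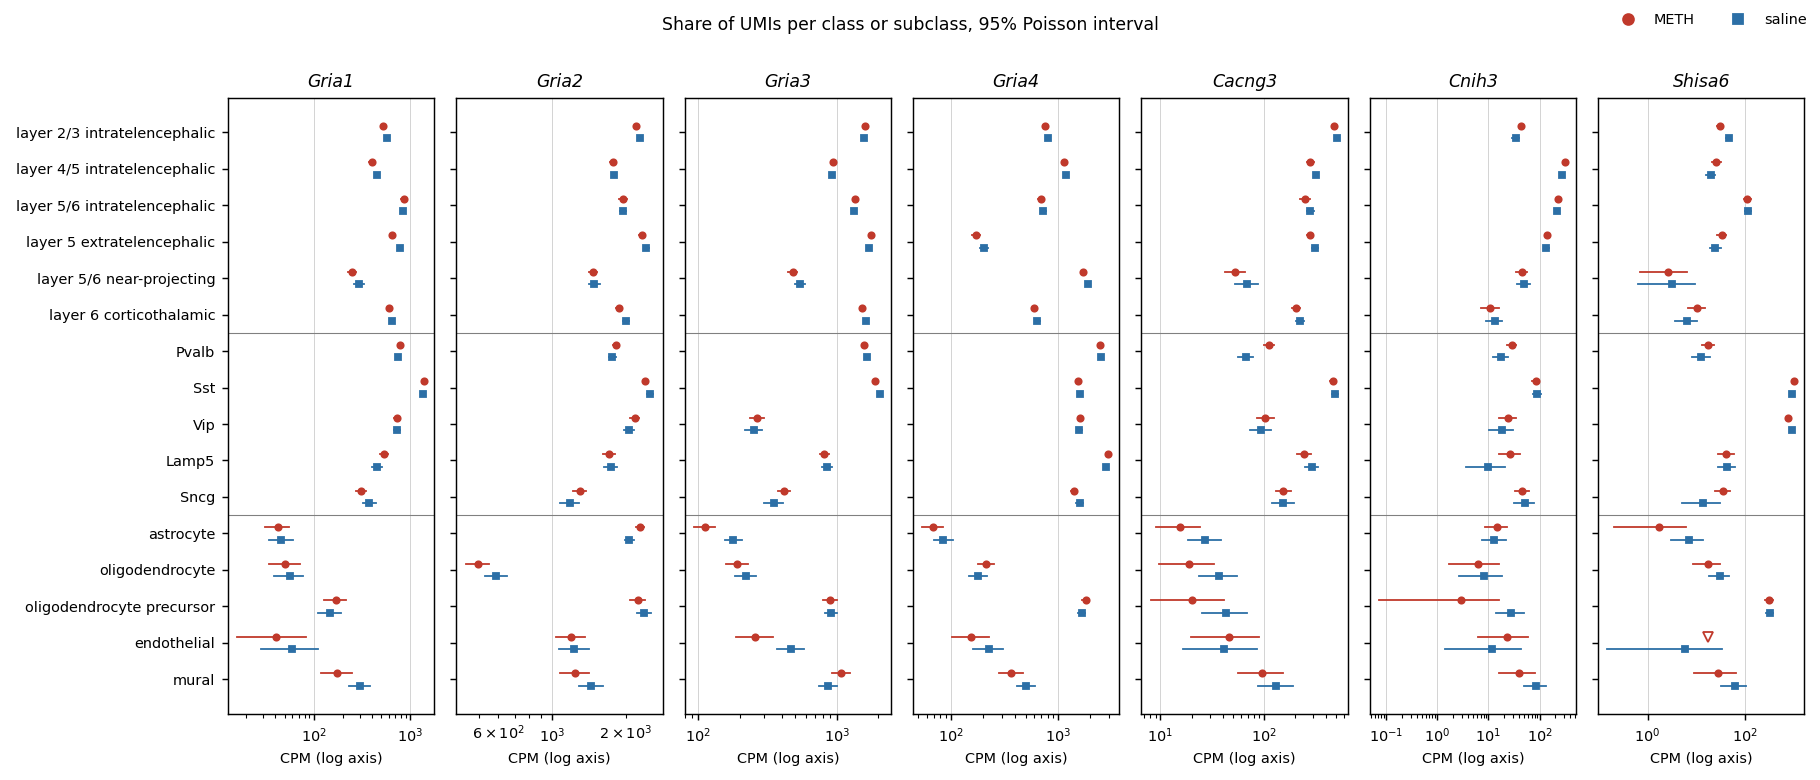
Level of each of the 7 genes (CPM of the class total, log axis) in 16 classes and subclasses, with circles for METH, squares for saline and bars for the exact 95% Poisson interval. An open triangle marks 0 UMIs at the level that 3 counts would give; Gria4 and Shisa6 spread widely over the neuron rows, while the METH and saline points of a row mostly lie side by side.

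Among excitatory subclasses the 4 genes followed different orders. Gria4 was highest in layer 5/6 near-projecting neurons, deep cells with mostly local axons, at 1691 CPM in METH and 1908 CPM in saline nuclei. It was lowest in layer 5 extratelencephalic neurons, which project to subcortical targets, at 172 CPM in METH and 203 CPM in saline nuclei. The highest level was therefore 9.86 times the lowest in METH and 9.40 times in saline excitatory neurons. Gria3 ran the other way across this pair, with 479 CPM in METH and 543 CPM in saline near-projecting neurons and 1770.1 CPM in METH and 1711 CPM in saline extratelencephalic neurons. Gria1 was highest in layer 5/6 intratelencephalic neurons, at 855 CPM in METH and 842 CPM in saline nuclei, and lowest in near-projecting neurons, at 250.04 CPM in METH and 296 CPM in saline nuclei. Gria2 had the narrowest spread, with a highest level 1.58 times the lowest in METH and 1.63 times in saline excitatory subclasses. Its highest level was in extratelencephalic neurons (2322 CPM in METH, 2419.7 CPM in saline) and its lowest in near-projecting neurons (1466 CPM in METH, 1483 CPM in saline).

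Among interneuron subclasses, Sst neurons, which target dendrites, were first for Gria1, Gria2 and Gria3 in both libraries. Gria1 reached 1367 CPM in METH and 1357 CPM in saline Sst neurons, and the next interneuron subclass, the fast-spiking Pvalb neurons, had 786 CPM in METH and 749 CPM in saline. Vip neurons, which mainly inhibit other interneurons, had little Gria3: 266 CPM in METH and 252 CPM in saline, beside 1882 CPM in METH and 2039 CPM in saline Sst neurons. These Gria3 levels differed 7.07-fold in METH and 8.09-fold in saline nuclei. Gria4 was highest in Lamp5 neurons, which include neurogliaform cells, at 2921 CPM in METH and 2789 CPM in saline, followed by Pvalb neurons at 2442 CPM in METH and 2528 CPM in saline. In the order over all 16 classes and subclasses, the step for Gria4 from Lamp5 to Pvalb and from Pvalb to near-projecting neurons was larger than counting error in both libraries. The following neighbours, from near-projecting neurons through oligodendrocyte precursors, Vip, Sst and Sncg neurons, did not stand apart in both. For Gria2, only the steps below Lamp5 neurons and below endothelial nuclei exceeded counting error in both libraries, so most of its order is not resolved.

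Receptors are assembled from the subunits a cell transcribes, so the share of each gene among the UMIs of Gria1 to Gria4 was taken per class. Gene length and 3′ structure affect each gene's capture, so a share is compared for 1 gene between classes and not between genes. The Gria2 share was 32.3% (31.9 to 32.7) in METH and 31.5% (31.1 to 32.0) in saline inhibitory neurons, against 42.6% (42.3 to 42.9) in METH and 42.5% (42.2 to 42.8) in saline excitatory neurons. Inhibitory neurons were thus 10.2 percentage points below excitatory neurons in the METH library and 10.96 points below in the saline library. Since the Gria2 level was alike in both classes, this gap lay in the other subunits: the Gria4 share was 32.7% in METH and 33.3% in saline inhibitory neurons, against 16.5% in METH and 17.3% in saline excitatory neurons.

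The gap was not shared by all interneurons. The Gria2 share was 27.5% in METH and 26.3% in saline Pvalb neurons, the lowest of 11 neuron subclasses in both libraries. Lamp5 neurons followed with 28.6% in METH and 29.8% in saline. Vip neurons, at 45.5% in METH and 44.6% in saline, reached the range of excitatory subclasses in both libraries. That range was 37.7% to 47.3% in METH and 35.1% to 47.3% in saline nuclei. Sncg neurons had 1135 Gria2 UMIs among 2991 subunit UMIs in METH and 509 among 1511 in saline. The Gria4 share varied most, with 3.49% in METH and 3.96% in saline extratelencephalic neurons and 48.9% in METH and 47.9% in saline Lamp5 neurons. The Gria3 share was lowest in Vip neurons (5.58% in METH, 5.45% in saline) and highest in extratelencephalic neurons (36.1% in METH, 33.4% in saline). Between the libraries, the largest gap in any subclass was 4.26 points for Gria2 and -4.68 points for Gria4, METH minus saline, both in Sncg neurons. Over the subclasses, by contrast, the Gria4 share spanned 45.4 points in METH and 43.9 points in saline.

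**Figure D2:**
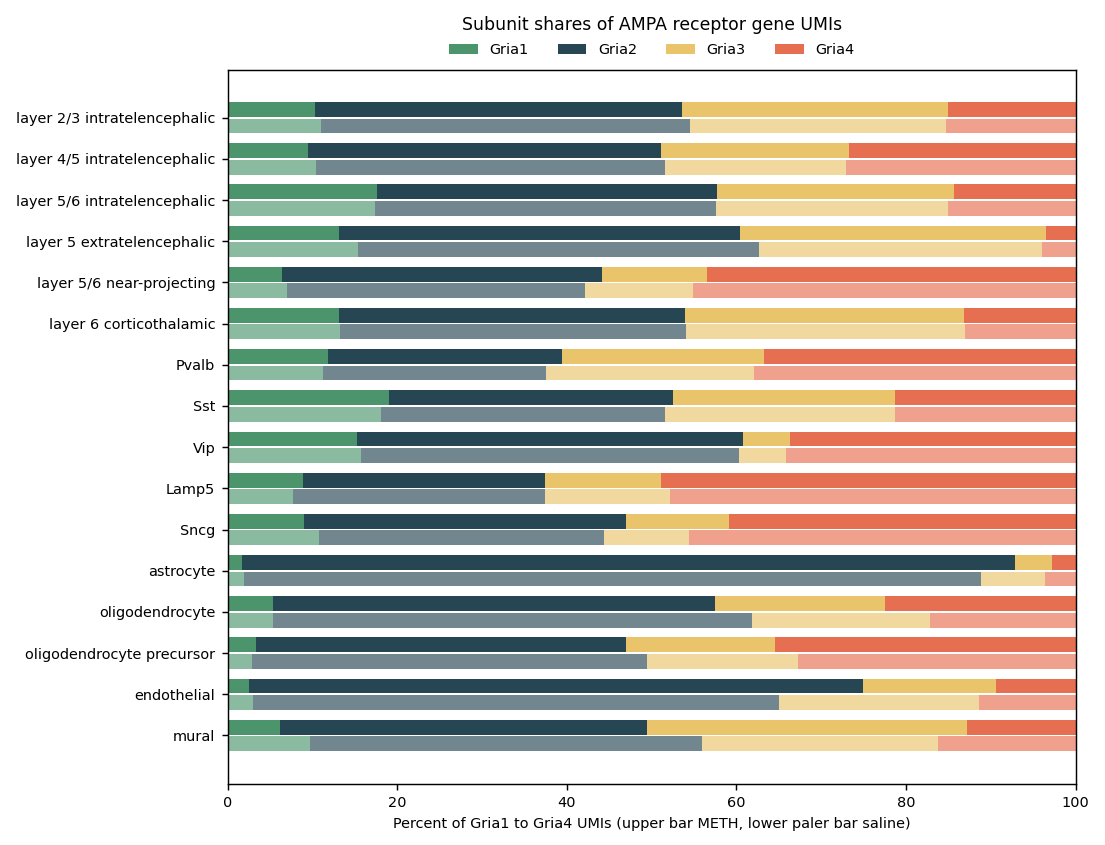
Percent of Gria1 to Gria4 UMIs taken by each subunit in 16 classes and subclasses, with METH as the upper bar and saline as the lower, paler bar of each pair. The bars of a pair are alike in neurons, the Gria4 part is smallest in layer 5 extratelencephalic neurons and largest in Lamp5 neurons, and Gria2 takes 91.2% in METH and 86.9% in saline astrocytes.

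The shares were also taken nucleus by nucleus. Each neuron with at least 20 subunit UMIs was thinned to 20 of them, which kept 1896 of 2145 METH and 2632 of 3500 saline excitatory neurons. Over these, the Gria4 share per nucleus had a standard deviation of 14.7 points in METH and 14.5 points in saline nuclei, beside 8.46 in METH and 8.47 in saline that random draws from 1 common share would give. Within layer 2/3 intratelencephalic neurons it was 8.90 points in METH and 9.79 in saline, beside 7.75 in METH and 7.90 in saline by random draws. Within layer 4/5 intratelencephalic neurons it was 13.9 points in METH and 13.6 in saline, beside 9.98 in METH and 9.89 in saline by random draws. In Lamp5 neurons it was 18.1 points in METH and 17.5 in saline (11.2 by random draws in both). In extratelencephalic neurons 55.7% of METH and 53.9% of saline nuclei had no Gria4 among their 20 UMIs, whereas no near-projecting nucleus with 20 subunit UMIs lacked it. That depth was reached by 140 of 237 METH and 78 of 212 saline near-projecting nuclei, beside 201 of 205 METH and 258 of 297 saline extratelencephalic nuclei. The median of these near-projecting nuclei had a Gria4 share of 45.0% in both libraries.

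**Figure D3:**
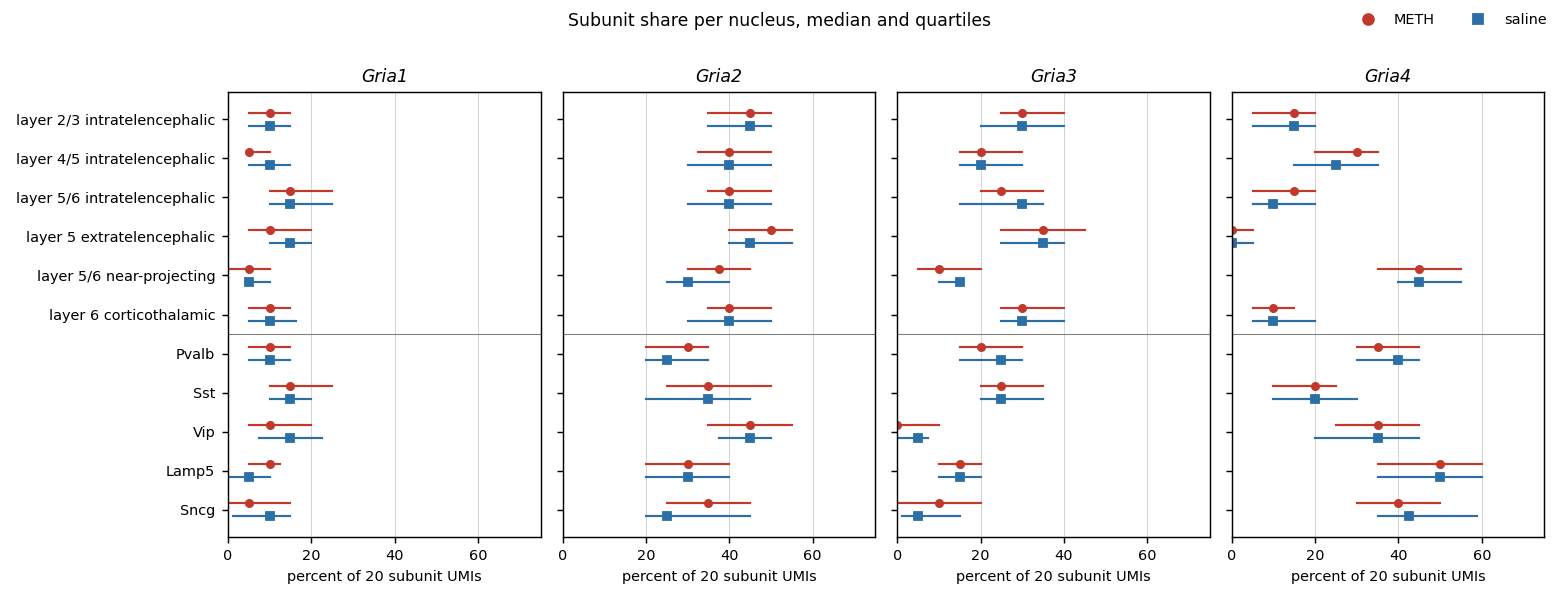
Share of each pore subunit per nucleus (percent of 20 subunit UMIs) in 11 neuron subclasses, with the median as a circle for METH or a square for saline and the quartiles as a line. A nucleus moves in steps of 1 UMI; the Gria4 medians are 0 in layer 5 extratelencephalic neurons and 45.0% in near-projecting neurons of both libraries.

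Of the auxiliary subunits, Shisa6 was the most selective. It reached 1015 CPM in METH and 921 CPM in saline Sst neurons and 747 CPM in METH and 914 CPM in saline Vip neurons. Pvalb neurons had 17.3 CPM in METH and 12.8 CPM in saline, so the highest interneuron level was 58.7 times the lowest in METH and 72.1 times in saline. In excitatory neurons Shisa6 was low, at 35.0 CPM in METH and 47.7 CPM in saline, with layer 5/6 intratelencephalic neurons highest of the 6 named subclasses at 111 CPM in METH and 115 CPM in saline. With each nucleus thinned to 1000 UMIs, 56.0% of METH and 52.9% of saline Sst neurons had a Shisa6 UMI, beside 0.517% of METH and 0.521% of saline Pvalb neurons. Astrocytes, which should lack it, had 0.473% in METH and 0.593% in saline. As levels, the Pvalb values rest on 50 UMIs in METH and 26 in saline, beside astrocyte levels of 1.71 CPM (2 UMIs) in METH and 6.97 CPM (8 UMIs) in saline. Thinning kept 359 METH and 350 saline Sst neurons, all Pvalb neurons, and 423 METH and 506 saline astrocytes. Without thinning the shares were 85.8% in METH and 81.2% in saline Sst neurons, 3.101% in METH and 2.08% in saline Pvalb neurons and 0.469% in METH and 1.34% in saline astrocytes. Median depths were 6023.5 UMIs in METH and 4383.5 in saline Sst neurons, 6779 in METH and 4792.5 in saline Pvalb neurons and 2419.5 in METH and 2011 in saline astrocytes.

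Cnih3 was mainly a gene of excitatory neurons and differed between their subclasses, also between subclasses of the same layers. It had 317 CPM in METH and 279.6 CPM in saline layer 4/5 intratelencephalic neurons, 234 CPM in METH and 224 CPM in saline layer 5/6 intratelencephalic neurons and 141 CPM in METH and 136 CPM in saline extratelencephalic neurons. Layer 2/3 intratelencephalic neurons had only 43.8 CPM in METH and 33.9 CPM in saline. Layer 5/6 near-projecting neurons came between the extratelencephalic and the layer 2/3 neurons in both libraries. Sst interneurons, at 83.1 CPM in METH and 89.0 CPM in saline, had more Cnih3 than these layer 2/3 neurons. Layer 6 corticothalamic neurons, which project to the thalamus, had 10.8 CPM in METH and 13.3 CPM in saline, beside an astrocyte level of 14.6 CPM in METH and 13.1 CPM in saline. Cacng3 was the broadest auxiliary gene. It was highest in layer 2/3 intratelencephalic neurons (474 CPM in METH, 509 CPM in saline) and in Sst neurons (469.5 CPM in METH, 492 CPM in saline), and these neighbours did not stand apart. Near-projecting neurons, at 52.7 CPM in METH and 68.6 CPM in saline, and 2 interneuron subclasses, Pvalb at 113 CPM in METH and 67.2 CPM in saline and Vip at 104 CPM in METH and 94.4 CPM in saline, had little of it.

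Promoter windows are shown for Gria4 and Shisa6, the pore-forming and the auxiliary gene whose levels differed most between neuron subclasses. They run from 250 bases before to 50 bases after the start in RefSeq (rat assembly GRCr8), which matched 4 of the 7 genes by symbol. Gria1, Gria2 and Gria3 are named only. A set of 3 motifs was searched on both strands, and matches are in capitals: the E-box CAGCTG read by neural basic helix-loop-helix factors, the cAMP response element TGACGTCA and the GC box GGGCGG. The Gria4 window lies at chr8:10319832-10320131 (minus strand) and the Shisa6 window at chr10:51691107-51691406 (minus strand), and both are written 5′ to 3′.
Gria4: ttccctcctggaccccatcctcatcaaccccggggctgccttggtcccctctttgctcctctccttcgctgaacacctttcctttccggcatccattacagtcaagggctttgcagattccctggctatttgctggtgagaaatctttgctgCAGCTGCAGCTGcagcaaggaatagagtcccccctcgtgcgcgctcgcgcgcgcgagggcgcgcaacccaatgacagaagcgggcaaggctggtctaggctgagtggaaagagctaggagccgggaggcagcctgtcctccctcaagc
Shisa6: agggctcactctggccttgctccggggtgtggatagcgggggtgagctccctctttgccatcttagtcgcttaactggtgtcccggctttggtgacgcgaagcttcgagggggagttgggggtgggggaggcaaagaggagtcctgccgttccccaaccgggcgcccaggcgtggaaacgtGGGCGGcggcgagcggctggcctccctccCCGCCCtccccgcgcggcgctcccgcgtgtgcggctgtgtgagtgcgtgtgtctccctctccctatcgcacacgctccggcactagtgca
The Gria4 window held 2 adjacent E-box matches that do not overlap, and the Shisa6 window held 2 GC box matches, 1 on each strand. Among 33469 rat promoter windows of the same length, 15.06% held the E-box, 1.83% the cAMP response element and 33.06% the GC box. These matches describe the sequence, and binding was not measured.

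Outside neurons, Gria2 reached its neuronal level in astrocytes, at 2289.9 CPM in METH and 2067 CPM in saline, whereas Gria1 had 42.0 CPM in METH and 46.2 CPM in saline astrocytes. The Gria2 share of the subunit UMIs was 91.2% (90.1 to 92.2) in METH and 86.9% (85.6 to 88.2) in saline astrocytes, beside the 42.6% in METH and 42.5% in saline excitatory neurons given above. Oligodendrocyte precursors, glia that receive synapses from neurons, had Gria4 at 1809.9 CPM in METH and 1665 CPM in saline and Gria2 at 2230.3 CPM in METH and 2371 CPM in saline. They also had Shisa6 at 309 CPM in METH and 319.7 CPM in saline, while mature oligodendrocytes had 17.3 CPM in METH and 30.4 CPM in saline. In precursors Gria4 took 35.5% of the subunit UMIs in METH and 32.7% in saline. Endothelial nuclei had 0 Shisa6 UMIs in the METH library, which allows up to 17.2 CPM, and 1 in the saline library. Mural nuclei had Gria3 at 1075 CPM in METH and 869 CPM in saline, and the 5 excitatory markers summed to 417 CPM in METH and 620 CPM in saline mural nuclei. Free neuronal RNA in mural droplets was not separated from their own RNA.

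Genes with the most similar pattern over the 16 classes and subclasses of both libraries were listed by Pearson correlation of log2(CPM + 10) over 32 points, among 9342 genes. The points of a library share its depth and free RNA, so r is a description and has no p. For Gria1 they were Dlgap2 (0.93), Dnm1 (0.93) and Dlgap1 (0.92), of which the Dlgap genes encode scaffold proteins of the excitatory postsynapse. For Gria2 they were Dennd1b (0.84), Grk3 (0.82) and Osbpl6 (0.82), and for Gria3 they were Cers6 (0.86), Lpcat2 (0.86) and Focad (0.83). For Gria4 they were Frmd3 (0.91), Smarca1 (0.86) and Rims1 (0.85), the last an active-zone scaffold. Among the members themselves r was highest between Gria1 and Cacng3 (0.82) and lowest between Gria4 and Cnih3 (0.10).

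The comparison of METH with saline asks whether repeated METH was followed by a different transcript level of these genes in any cell class. Each gene was compared in 18 classes and subclasses with at least 50 nuclei in each library, and 99 of the 126 pairs had enough UMIs. A pair counted as higher or lower where both the ratio and the interval bound nearest to 0 passed 1.5-fold. None of the 99 pairs did (0 higher and 0 lower), beside 0.318% of the 87400 gene and class pairs of all measured genes. Intervals lay wholly above 0 in 9 pairs and wholly below 0 in 34 pairs. For all genes, the pooled shares were 7.92% above and 11% below, and the members' shares were 9.09% above and 34.3% below. The members' median was 27487 UMIs over both libraries in excitatory neurons, beside 2849.5 for all genes measured there, and an interval narrows with counts. In that class, intervals lay wholly above 0 for 17.7% and wholly below 0 for 23.5% of 7144 measured genes. The part of depth in the members' shares was not tested. Subclasses are also counted within their class, so the member pairs are not independent.

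**Figure D4:**
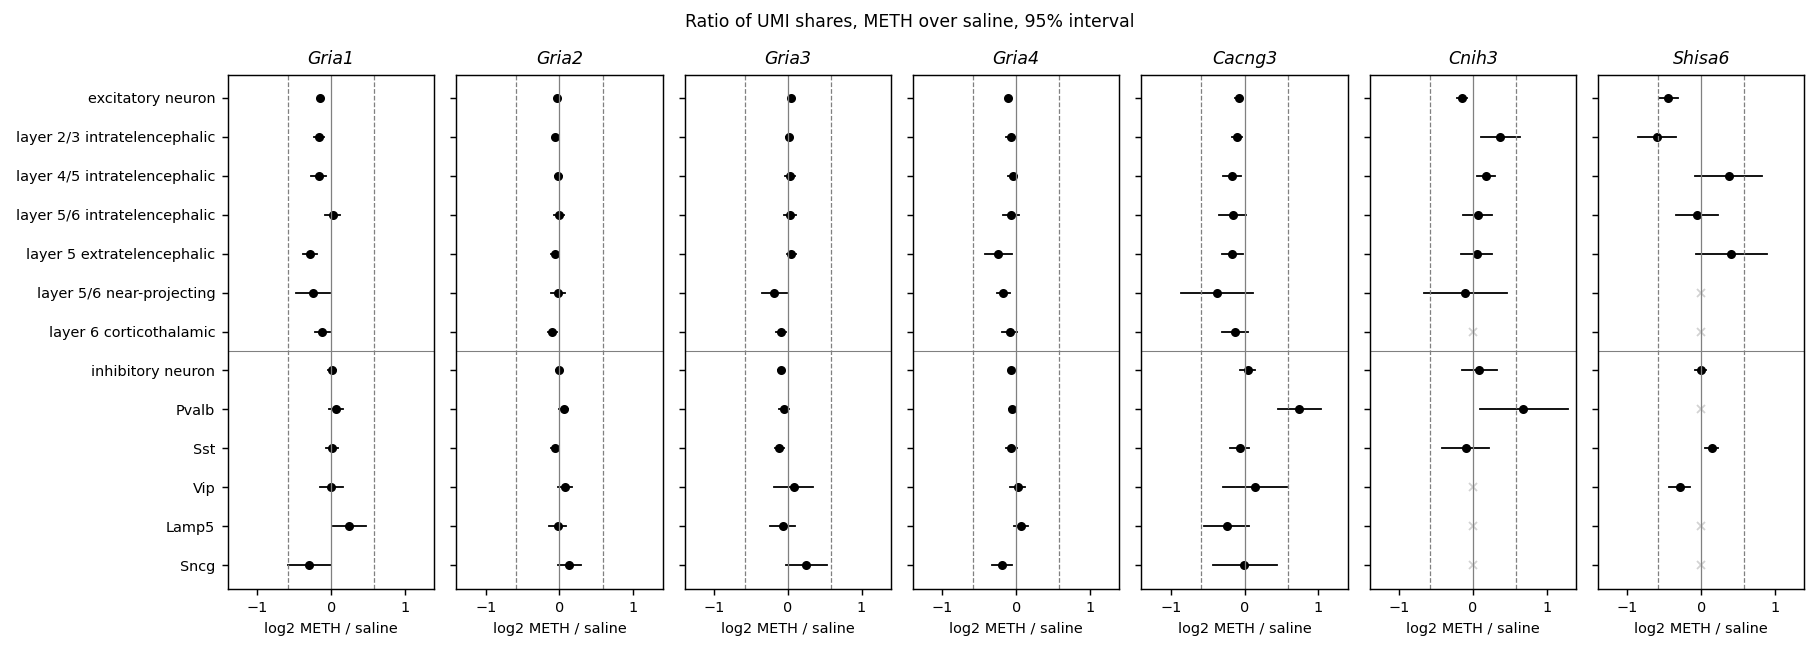
Log2 ratio of METH over saline for each gene (points) in the excitatory and inhibitory neuron classes and their subclasses, with the exact 95% interval as a line and dashed lines at 1.5-fold. Pale crosses at 0 mark pairs with too few UMIs; Cacng3 in Pvalb neurons, at 0.75, is the farthest point to the right, and no interval lies wholly beyond a dashed line.

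In excitatory neurons Gria1 had a log2 ratio of -0.15 (-0.18 to -0.12), from 542 CPM in METH and 601 CPM in saline nuclei. The same sign occurred in 5 of 6 subclasses, each with an interval below 0, and in 7 of all 8 excitatory subclusters including those left unnamed. The size was greatest in extratelencephalic neurons, where Gria1 had 644 CPM in METH and 788 CPM in saline nuclei and a log2 ratio of -0.29 (-0.38 to -0.20). Layer 5/6 intratelencephalic neurons were the exception, at 855 CPM in METH and 842 CPM in saline with a log2 ratio of 0.02 (-0.08 to 0.12). Gria4 was below 0 in all 6 excitatory subclasses, with an interval below 0 in 3 of them. Its ratio in extratelencephalic neurons was -0.24 (-0.42 to -0.06), and -0.64 with nuclei matched on UMIs between the libraries. Gria2 lay between -0.10 and -0.01 in the 6 subclasses, and Gria3 between -0.18 in near-projecting and 0.05 in extratelencephalic neurons. In excitatory neurons as a class, the log2 ratios were -0.04 (-0.06 to -0.02) for Gria2, 0.04 (0.02 to 0.07) for Gria3 and -0.11 (-0.14 to -0.08) for Gria4. With the same matching, the Gria3 ratio of the class was -0.07, of the opposite sign. Median depth was 9407 UMIs in METH and 6412.5 in saline excitatory neurons, and its part in these small ratios was not tested.

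In inhibitory neurons the pore subunits lay as near to 0. Gria1 had a log2 ratio of 0.01 (-0.04 to 0.07), Gria2 -0.01 (-0.04 to 0.03), Gria3 -0.09 (-0.14 to -0.05) and Gria4 -0.07 (-0.10 to -0.04). By subclass, Gria3 in Sst neurons had 1882 CPM in METH and 2039 CPM in saline, with a log2 ratio of -0.12 (-0.18 to -0.05). Gria1 in Lamp5 neurons had 531 CPM in METH and 448 CPM in saline, with a log2 ratio of 0.25 (0.02 to 0.47) that was -0.11 with nuclei matched on UMIs, and in Sncg neurons 306 CPM in METH and 375 CPM in saline, with -0.30 (-0.58 to -0.01). Whether the Gria1 ratios of these subclasses differ between animals cannot be tested with 1 library each.

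Of the measured neuron pairs, the ratio farthest from 0 belonged to an auxiliary subunit in Pvalb neurons. Cacng3 had 326 UMIs (113 CPM) in 387 METH and 137 UMIs (67.2 CPM) in 384 saline Pvalb neurons, with a log2 ratio of 0.75 (0.45 to 1.04). The ratio was positive in each of the 3 Pvalb subclusters, at 0.69 in that led by Egflam, 0.98 in that led by Fras1 and 0.91 in that led by Mybpc1. The single nucleus with the most Cacng3 UMIs held 5.83% of them in METH and 5.11% in saline Pvalb neurons. With each nucleus thinned to 1000 UMIs, 10.6% (7.71 to 14.1) of METH and 6.51% (4.26 to 9.46) of saline Pvalb neurons had a Cacng3 UMI, intervals that overlap. Astrocytes, which should lack the gene, had 2.36% in METH and 0.791% in saline. Unthinned, the shares were 42.9% in METH and 26.8% in saline Pvalb neurons and 4.23% in METH and 4.99% in saline astrocytes. In the other interneurons Cacng3 had log2 ratios of -0.07 in Sst, 0.14 in Vip, -0.24 in Lamp5 and -0.00 in Sncg neurons, each with an interval that includes 0. The 5 excitatory markers summed to 50.8 CPM in METH and 86.4 CPM in saline Pvalb neurons, and the part of free RNA in the Cacng3 ratio was not tested. Cnih3 in Pvalb neurons rested on 82 METH and 36 saline UMIs (28.4 CPM in METH, 17.7 CPM in saline), with a log2 ratio of 0.68 (0.10 to 1.29) and 18.3% of the METH UMIs in 1 nucleus.

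For Cnih3, the ratio of the excitatory class had the opposite sign to 4 of the 5 measured subclasses. Cnih3 had 132 CPM in METH and 146 CPM in saline excitatory neurons, a log2 ratio of -0.15 (-0.22 to -0.08). The subclass ratios above 0 included 0.37 (0.11 to 0.63) in layer 2/3 and 0.18 (0.06 to 0.31) in layer 4/5 intratelencephalic neurons. The layer 2/3 value was -0.08 with nuclei thinned to 1000 UMIs. Median depth there was 9935.5 UMIs in METH and 6846 in saline nuclei, so the thinned value rests on far fewer counts. Over all 8 excitatory subclusters, Cnih3 was above 0 in 5 and below 0 in 3, down to -0.30. The Cnih3-rich layer 4/5 intratelencephalic neurons were 12.7% of METH and 16.8% of saline excitatory nuclei, and the Cnih3-poor layer 2/3 neurons 29.9% of METH and 22.6% of saline excitatory nuclei. The clustering of all nuclei gave excitatory clusters that are not these 8 subclusters. With each of those clusters given the same weight in both libraries, the class ratio of Cnih3 was 0.09, of the opposite sign. Fewer sampled nuclei and a different tissue makeup cannot be told apart.

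Shisa6 had 35.0 CPM in METH and 47.7 CPM in saline excitatory neurons, a log2 ratio of -0.45 (-0.58 to -0.32), which was -0.11 with at least 1000 genes per nucleus. In layer 2/3 intratelencephalic neurons it had 30.3 CPM in METH and 45.9 CPM in saline, with a log2 ratio of -0.60 (-0.86 to -0.34). Thinned to 1000 UMIs, 3.74% (2.41 to 5.51) of METH and 3.80% (2.58 to 5.38) of saline layer 2/3 neurons had a Shisa6 UMI, and unthinned 19.9% of METH and 18.5% of saline neurons had one. An unnamed subcluster led by Pld5, Thsd7a and Rorb had 86.1 CPM in METH and 120.4 CPM in saline, and made up 8.34% of METH and 14.3% of saline excitatory nuclei. In interneurons the Shisa6 ratios pointed both ways: 0.14 (0.05 to 0.23) in Sst neurons, with 1015 CPM in METH and 921 CPM in saline, and -0.29 (-0.44 to -0.15) in Vip neurons, with 747 CPM in METH and 914 CPM in saline. The Sst value was 0.01 with nuclei matched on UMIs, and the Vip value -0.11 with neuron clusters weighted alike. Within Sst neurons the subclusters ranged from -0.22 in that led by Pappa2 to 0.30 in that led by Unc13c. In Vip neurons the larger subcluster, led by Vip itself, had -0.40 and that led by Cpne4 had 0.22.

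In glia and vessels, Gria3 ratios pointed both ways. Astrocyte Gria3 had 130 UMIs (111 CPM) in METH and 206 UMIs (179 CPM) in saline, with a log2 ratio of -0.69 (-1.02 to -0.36) that was -0.18 with nuclei thinned to 1000 UMIs. Endothelial Gria3 had 45 UMIs in METH and 79 UMIs in saline, with -0.86 (-1.43 to -0.32). The endothelial value, the farthest from 0 of the 99 pairs, was 0.12 with at least 1000 genes per nucleus. Mural Gria3 had 1075 CPM in METH and 869 CPM in saline, with 0.31 (0.01 to 0.61). The summed excitatory markers were 93.4 CPM in METH and 172 CPM in saline astrocytes, and 189 CPM in METH and 303 CPM in saline endothelial nuclei. All 5 markers had UMIs in astrocytes and 3 of 5 in endothelial nuclei of both libraries. Their part in the astrocyte and endothelial Gria3 ratios was not tested. Mural Gria4 had a log2 ratio of -0.47 (-0.94 to -0.01), which was 0.39 at Leiden resolution 2, and oligodendrocyte Gria2 had -0.25 (-0.47 to -0.03). Gria2 went the other way in astrocytes, with a log2 ratio of 0.15 (0.07 to 0.23), and in oligodendrocyte precursors Gria4 and Shisa6 had log2 ratios of 0.12 (-0.04 to 0.28) and -0.05 (-0.44 to 0.33).

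The genes that build, anchor and edit AMPA receptors were examined in the neuron classes in the same way. None of the measured genes of the 7 partner lists passed the size rule in either class (0 higher and 0 lower in each list), beside 0.322% of 7144 measured genes in excitatory and 0.292% of 7546 in inhibitory neurons. The median log2 ratio was -0.11 over the 7 members and -0.01 over all measured genes in excitatory neurons, and -0.01 over both in inhibitory neurons. Of 12 other auxiliary subunits 10 are in the table and 8 were measured, with medians of -0.02 in excitatory and -0.01 in inhibitory neurons. In the other lists, the excitatory medians were -0.02 over 6 assembly and export factors, -0.05 over 9 scaffold and trafficking partners, -0.11 over 6 extracellular partners, 0.02 over 2 RNA editing enzymes, -0.12 over 4 NMDA receptor subunits and 0.01 over 6 kainate and delta receptors. The inhibitory medians were -0.01 over 6 assembly and export factors, -0.06 over 8 scaffold and trafficking partners, -0.12 over 4 extracellular partners, 0.06 over 3 editing enzymes, -0.00 over 5 NMDA receptor subunits and 0.03 over 7 kainate and delta receptors. Among the other auxiliary subunits, the values farthest from 0 were Cacng7 at 0.19 and Prrt1 at -0.18 in excitatory neurons, and Cacng4 at 0.35 and Cnih2 at -0.21 in inhibitory neurons. Assembly and export factors had Porcn at 0.10 and Abhd12 at 0.09 in excitatory neurons, and Abhd6, which restrains surface delivery, at -0.13 and Porcn at -0.11 in inhibitory neurons. Among scaffold and trafficking partners, Dlg4, which encodes the postsynaptic scaffold PSD-95, had 47.9 CPM in METH and 61.5 CPM in saline inhibitory neurons, with a log2 ratio of -0.36 (-0.57 to -0.15). It was at -0.12 in excitatory neurons, Grasp was at -0.15 there, and Akap5 was at -0.19 in inhibitory neurons.

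Extracellular partners, which cluster receptors from the synaptic cleft, included the activity-regulated pentraxin Nptx2, with 23.3 CPM in METH and 30.6 CPM in saline excitatory neurons and a log2 ratio of -0.39 (-0.55 to -0.23). Olfm3 was at 0.24 in the same class, and in inhibitory neurons the pentraxin receptor gene Nptxr was at -0.26 and Olfm1 at -0.15. Of the adenosine deaminases, Adarb1, which edits the Gria2 transcript, had log2 ratios of 0.05 in excitatory and of 0.06 in inhibitory neurons, and Adar was at -0.00 in excitatory neurons. Adarb2, a family member without known catalytic activity, had 925 CPM in METH and 755 CPM in saline inhibitory neurons, with a log2 ratio of 0.29 (0.24 to 0.35). Adarb2 was among the leading genes of the Vip and Sncg subclusters. Vip neurons were 229 of 1291 METH and 211 of 1221 saline inhibitory nuclei, and Sncg neurons 120 in METH and 83 in saline. The part of this makeup in the Adarb2 ratio was not tested. The other glutamate receptor lists gave values of the same order. Grin2a, an NMDA receptor subunit, had 451 CPM in METH and 566 CPM in saline excitatory neurons (-0.33, -0.36 to -0.29), and Grin3a was at -0.19 there and at 0.20 in inhibitory neurons, where Grin2a was at -0.18. Grik3, a kainate receptor subunit, had 279 CPM in METH and 218 CPM in saline excitatory neurons (0.36, 0.30 to 0.41) and was at 0.16 in inhibitory neurons, where Grid1 was at 0.11.

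**Figure D5:**
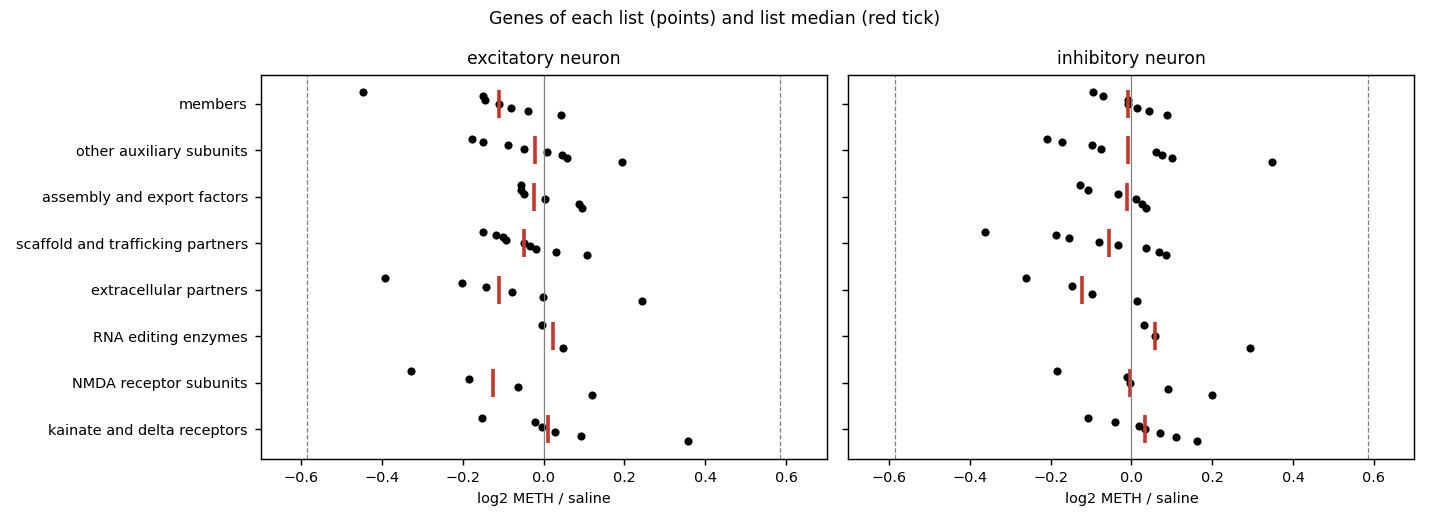
Log2 ratio of METH over saline in excitatory neurons (left) and inhibitory neurons (right) for the measured genes of the members and the 7 partner lists (points, spread vertically for legibility), with the list median as a red tick and dashed lines at 1.5-fold. All points lie between the dashed lines, with Shisa6 at -0.45 the lowest and Grik3 at 0.36 the highest in excitatory neurons.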

How the data were processed

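Nuclei were dounced and lysed from tissue and profiled with the Chromium 3′ v3.1 chemistry, per the labels' protocols. The deposited values are raw UMI counts per gene and barcode, made by the authors. The file headers name Cell Ranger 7.0.0. The submitters' processing notes name the build hg38, which the rat gene identifiers do not match, and the rat build used is not named in the labels or headers.

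A barcode was kept with 500 or more genes and no more than 5% of mitochondrial UMIs. Scrublet (scanpy 1.11.5, expected rate 0.06) removed 328 METH (5.98%) and 401 saline (5.80%) doublets. Counts were scaled to 10000 per nucleus. At least 2000 variable genes without the listed receptor genes, 30 principal components and 15 neighbours went into Leiden clustering (igraph 0.11.9). The resolution was 1, and 0.5 within neurons, and no integration was done. Clusters were named from marker genes, as X-like classes written without the suffix. The naming thresholds were set after marker levels of the clusters were seen: a mean marker level of 0.4 of the highest cluster, with a lead of 0.1 between classes and 0.05 between subclasses. Clusters with over 90% of nuclei from 1 library and those led by genes of another class stayed unnamed. So did shallow clusters with no marker of their class among their 10 leading genes. A cluster led by Pbx3, Trdn and Ptpro, with inhibitory markers at 0.781, held 139 METH nuclei and 1 saline nucleus. It stayed unnamed and is not part of the inhibitory neurons above. The microglia-marker cluster (38 METH, 76 saline nuclei) was shallow and also stayed unnamed. A further cluster led by microglia genes (Ctss, Inpp5d, Ikzf1; 180 METH and 226 saline nuclei, median 13457 UMIs) had near-equal excitatory and microglia marker levels, 0.409 and 0.387, and also stayed unnamed; doublets left in it were not tested for. Free RNA was not removed.

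UMIs were summed per class and library and scaled to CPM of that sum. A gene counted as measured from 100 UMIs in the sum of the libraries and from 20 CPM in one of them. Ratios (log2, METH over saline) have exact conditional binomial intervals, shares have exact Clopper-Pearson intervals and levels exact Poisson intervals, all at 95% and for counting error only. The floor for a count of 0 is 3 counts per library. The size rule was tried on simulated Poisson counts with known folds for excitatory neurons, inhibitory neurons and mural nuclei. The simulated counts held no spread between animals or nuclei, so the rule was not tested against such spread. Named genes are the members, the 2 measured genes of each partner list with the largest absolute log2 ratio in each neuron class, and the 3 most correlated genes of each pore subunit; 1 gene that the rule names is not reported here. The members, lists and rules were chosen with earlier results of these data known. The alternatives, 14 in all, changed filters, doublet removal, clustering, weighting, depth, scaling (edgeR 4.0.16 TMM factors in R 4.3.3) and the low-count filter.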

Additional observations from a re-analysis of the deposited data

How the results depend on the processing

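The count of member pairs past the size rule was 0 in the analysis as reported and under each of the 14 alternatives. The Gria2 share of inhibitory minus excitatory neurons, -10.2 points in METH and -10.96 in saline, stayed negative in the 12 that can alter a share; TMM scaling and the low-count filter leave a share within a library as it is and were not run for it. It was -8.93 in METH and -10.23 in saline with nuclei thinned to 1000 UMIs, -8.95 in METH with nuclei matched on UMIs, -9.12 in METH and -10.01 in saline with equal weight per nucleus, and -12.1 in METH and -12.4 in saline with neuron clusters weighted alike, and the cause was not tested. Thinning moved 39 of 99 member ratios outside their interval and changed the sign of 25, and matching on UMIs moved 34 and changed the sign of 22. The other alternatives moved at most 8. Thinning and matching also drop counts: 74 pairs stayed measured with thinning and 93 with matching. Lost counts alone can move a ratio outside its full-count interval, and the part of depth in these moves was not tested. Cacng3 in Pvalb neurons stayed positive in 13 of 13 alternatives that gave it a value (0.54 to 0.86), and Gria1 in excitatory neurons stayed negative in 13 of 13 (-0.26 to -0.11). TMM scaling moved ratios by at most 0.18 (log2), in oligodendrocytes. No paired analysis was possible because each group has 1 library. Genes under 100 UMIs, among them most auxiliary members in glia, were too shallow to be compared.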

Other observations

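An unnamed inhibitory subcluster led by Unc5b, Col5a2 and Trps1 (25 METH and 17 saline nuclei, too few to compare the libraries) had a Gria2 share of the subunit UMIs of 19.9% (17.7 to 22.2) in METH and 21.6% (18.9 to 24.5) in saline nuclei, beside 27.5% in METH and 26.3% in saline Pvalb neurons. Its Gria4 level was 3688 CPM in METH and 4045 CPM in saline nuclei. This subcluster was picked out after its values were seen, and the intervals treat nuclei as 1 pool.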
